A study of Mus musculus with 4 samples.

Results

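The genes for the transforming growth factor β (TGF-β) ligands, their latent binding proteins and their receptors were followed in bone marrow cells selected with CD117 microbeads of wild-type animals and of animals with inducible HIF-1α. The set was chosen by name and holds 10 genes, namely the ligand genes Tgfb1, Tgfb2 and Tgfb3, the binding protein genes Ltbp1, Ltbp2, Ltbp3 and Ltbp4, and the receptor genes Tgfbr1, Tgfbr2 and Tgfbr3. All 10 were found among the 24415 Entrez gene identifiers of the count table, and 8 of them passed the filter on low counts and were tested. Each genotype had 2 libraries, and the strain background of all 4 was C57BL/6, 129X1/SvJ. The series design describes the induced protein as constitutively active HIF-1α, the subunit that makes the transcription factor HIF-1 respond to oxygen. The promoter or Cre line that drives it, the inducing agent, the time after induction and the age of the mice are not known from the sources used here. Whether each library is a separate animal is not stated, so the tests below weigh differences against a spread between libraries that may be technical.

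TGF-β is secreted in a latent form, folded inside its own propeptide, and the propeptide is usually linked to a latent TGF-β binding protein that tethers the complex to the extracellular matrix until integrins, proteases or thrombospondin-1 release it. The free ligand binds the type II receptor encoded by Tgfbr2, which recruits and phosphorylates the type I receptor encoded by Tgfbr1, and the active complex phosphorylates SMAD2 and SMAD3. Tgfbr3 encodes betaglycan, a coreceptor that presents ligand. In bone marrow, TGF-β is known to restrain the cycling of hematopoietic stem cells, and megakaryocytes are a known source of it.

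The libraries held 22221798 to 27539149 counts, at which a gene with no count could still have stood at up to 0.112 to 0.138 CPM (counts scaled to TMM library sizes), the level of 3 counts. The biological coefficient of variation was 15.1% within wild type and 33.4% within inducible HIF-1α. The mouse Hif1a gene was at 179 and 168 CPM in wild type and at 155 and 113 CPM in inducible HIF-1α, with no call (log2 fold change -0.38 ± 0.21 SE, edgeR adjusted p = 0.426). The counts of this gene therefore did not show the induction that the labels state, and whether the induced transcript would be counted under it is not known. Kit, which encodes CD117 itself, was at 268 and 242 CPM in wild type and 348 and 390 CPM in inducible HIF-1α. All 10 markers of hematopoietic stem and progenitor cells were detected in every library and none was called. Markers of mature cells were detected too. The summed level of 10 B cell markers was 521 to 549 CPM in wild type and 6.36 to 16.9 CPM in inducible HIF-1α, with 9 genes called lower by edgeR and Pax5, Vpreb3 and Blk at 0 in at least 1 library of the latter. For 12 monocyte and macrophage markers the sums were 233 to 239 and 32.9 to 58.0 CPM (8 called lower, C1qa and Cd5l at 0 in a library). For 10 mature neutrophil markers they were 17700 to 19390 and 5894 to 13350 CPM, with 3 called lower and all 10 log2 fold changes negative. For 12 stromal and endothelial markers they were 159 to 174 and 43.4 to 58.7 CPM (2 called lower), and for 10 megakaryocyte and platelet markers 260.0 to 273 and 118.5 to 204 CPM (1 called lower). For 10 T and NK cell markers they were 184.0 to 203 and 89.8 to 115 CPM, with 2 called lower and all 10 log2 fold changes negative. The 10 erythroid markers summed to 6500 and 6730 CPM in wild type and to 3881 and 6820 CPM in inducible HIF-1α, with Tfrc called higher and Hba-a1 called lower. The part of these differences in the results below was not tested. In such bulk samples, fewer cells of a type and less RNA per cell cannot be told apart.

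Ltbp1 was the only gene of the set called, and it was higher in inducible HIF-1α. Across all 14043 genes tested, 1.12% were called at an edgeR adjusted p under 0.05, with 0.114% (16 genes) higher and 1.004% (141 genes) lower. No member was called lower, while 1 of the 8 (Tgfbr2) was lower at an unadjusted p under 0.05, as were 1609 of all 14043 genes. DESeq2 and edgeR's exact test also called Ltbp1 higher, and both called Tgfbr2 lower. Over all 14043 genes DESeq2 called 172 higher and 799 lower, and the exact test 184 higher and 923 lower. The levels in single libraries separated without overlap in 6 of the 8 tested genes, 2 higher and 4 lower, where 52.7% of all tested genes did so (24.6% higher and 28.2% lower). In all 6 the second inducible HIF-1α library lay farther from the wild-type mean than the first, as it did in 72.0% of the 7407 tested genes without overlap.

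**Figure D1:**
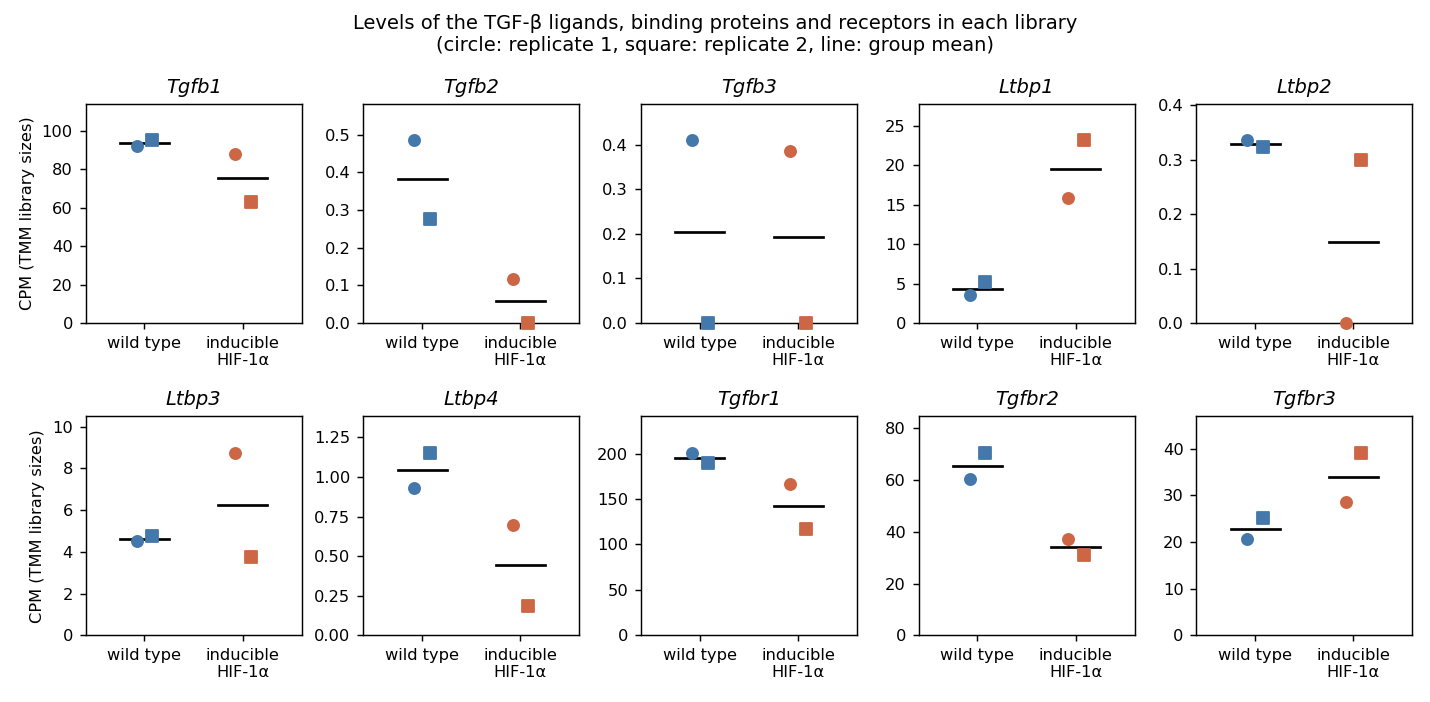
Level of each of the 10 genes in CPM (vertical axes, each from 0) in the 4 libraries, grouped by genotype. Circles are replicate 1, squares replicate 2 and lines group means. Ltbp1 lies at 3.58 and 5.17 CPM in wild type and at 15.8 and 23.2 CPM in inducible HIF-1α, while Tgfb3 is at 0 in replicate 2 of both genotypes.

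The ligand transcripts were almost entirely Tgfb1, the form that blood cells are known to make. Per kilobase of exon, which allows genes to be compared, Tgfb1 made up 98.9% and 99.8% of the ligand level in wild type. It made up 99.2% in the first inducible HIF-1α library and was the only ligand gene with a count in the second. Tgfb1 (Entrez 21803; chromosome 7, 25687002 to 25705077 in GRCm38) was at 92.4 and 95.2 CPM in wild type and at 87.9 and 63.1 CPM in inducible HIF-1α. The groups did not overlap, but only the second inducible HIF-1α library stood well below the wild-type pair. The difference was not called (log2 fold change -0.31 ± 0.22 SE, edgeR adjusted p = 0.509). The Tgfb1 value rested on which inducible HIF-1α library was kept: leaving out replicate 1 gave -0.57 (adjusted p = 0.0127) and leaving out replicate 2 gave -0.057 (adjusted p = 0.913). In such fits the lone inducible HIF-1α library is assumed to vary like the wild-type pair, which alone gives the spread and was the closer pair. They called 4669 and 1666 genes in all, against 157 with all libraries, so a call in them says little about a single gene.

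Tgfb2 and Tgfb3, which are better known from epithelial and mesenchymal tissue, were close to the limit of detection. Tgfb2 (Entrez 21808; chromosome 1, 186622787 to 186709697) had 13 and 6 counts in wild type and 3 and 0 in inducible HIF-1α, too few to pass the filter. Over the summed counts it was 6.87-fold higher in wild type (exact 95% interval 2.02 to 36.2, counting error only). Tgfb3 (Entrez 21809; chromosome 12, 86056743 to 86079041) had 11 and 10 counts in replicate 1 of wild type and of inducible HIF-1α and 0 counts in replicate 2 of each. A count of 0 allows up to 0.138 CPM in the wild-type and 0.112 CPM in the inducible HIF-1α library, against 0.411 and 0.387 CPM in the replicates with counts. The genotypes therefore overlapped, and the difference was not called (log2 fold change -0.15 ± 1.77 SE, edgeR adjusted p = 0.976). Tgfb3 overlaps Ttll5 on the opposite strand, with no shared exon bases.

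Of the binding proteins, LTBP1 and LTBP3 are known to carry all TGF-β forms, LTBP4 binds TGF-β1 weakly, and LTBP2 does not bind latent TGF-β. Ltbp1 (Entrez 268977; chromosome 17, 75005480 to 75392512) had 96 and 112 counts in wild type and 408 and 620 in inducible HIF-1α. In CPM these were 3.58 and 5.17 against 15.8 and 23.2. Each inducible HIF-1α library was above both wild-type libraries, and the spread within each genotype was smaller than the gap between them. The rise was 4.46-fold (log2 fold change 2.16 ± 0.34 SE, edgeR adjusted p = 0.0426).

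The size of the Ltbp1 rise was steady, while its call in the main edgeR fit was near the threshold. The adjusted p of Ltbp1 was 0.0457 by limma-voom and 0.00148 by edgeR with no filter on low counts. It was 4.14e-06 by edgeR's exact test and 2.64e-06 by DESeq2. The fits with the smaller values also called more genes in all. The log2 fold change was 1.89 to 2.44 when each library was left out in turn. Ltbp1 was among the 4669 and 1666 genes called with replicate 1 or 2 of inducible HIF-1α left out (adjusted p = 2.81e-16 and 2.94e-08), fits whose spread comes from the wild-type pair alone. The call was lost without wild-type replicate 1 (adjusted p = 0.552) and without wild-type replicate 2 (adjusted p = 0.596), fits in which edgeR called 2 genes and 0 genes in all, against 1049 and 703 at an unadjusted p under 0.05. It was also lost with total-count scaling (adjusted p = 0.0546), with the 10 most abundant genes left out (0.0533) and when each library had to reach 1 CPM (0.0640).

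**Figure D2:**
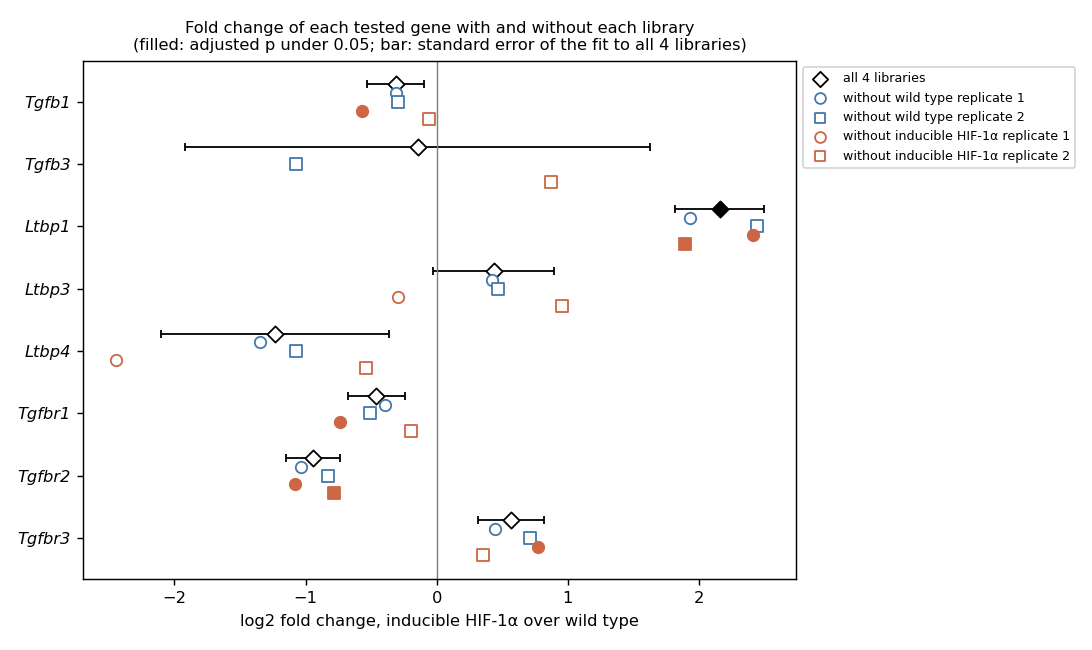
log2 fold change of inducible HIF-1α over wild type (horizontal axis) for the 8 tested genes, from all 4 libraries (diamonds, with the standard error) and with each library left out. Filled symbols have an edgeR adjusted p under 0.05, and those without an inducible HIF-1α library take their spread from the wild-type pair alone. Ltbp1 stays between 1.89 and 2.44 and Tgfbr2 between -1.08 and -0.79, while Ltbp3 and Tgfb3 lie on both sides of 0.

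Ltbp1 is known to be transcribed from a distal and an internal start, which give a long and a short protein, and the counts do not separate them. The stretch from 250 to 50 bases before each start is shown because Ltbp1 is the gene of the set that rose and the labels name a transcription factor, HIF-1, whose core motif is known. Sequences are from RefSeq (GRCm38.p6, plus strand), chr17:75005279-75005479 for the distal start at 75005529 and chr17:75178531-75178731 for the internal start at 75178781. The gene range given above begins at 75005480, upstream of that distal start, so the distal window ends where the annotated gene begins. Distances below are counted from the starts named here. The motifs searched on both strands were ACGTG and GCGTG, the cores of the hypoxia response element, CAGAC, the SMAD-binding letters, and TGACGTCA, the cAMP response element. Capitals mark matches to the motifs other than the last.
Ltbp1 distal start: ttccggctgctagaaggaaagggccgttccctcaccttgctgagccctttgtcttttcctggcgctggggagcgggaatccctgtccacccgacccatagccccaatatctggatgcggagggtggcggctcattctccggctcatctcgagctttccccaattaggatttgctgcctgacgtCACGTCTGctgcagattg
Ltbp1 internal start: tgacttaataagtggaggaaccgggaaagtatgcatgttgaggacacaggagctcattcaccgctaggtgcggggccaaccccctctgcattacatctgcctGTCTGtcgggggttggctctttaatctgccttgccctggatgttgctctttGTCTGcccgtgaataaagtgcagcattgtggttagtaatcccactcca
In the distal window, ACGTG was found on the opposite strand, as CACGT, 67 to 63 bases before the start. It overlapped TGACGTCA (73 to 66) on its left and CAGAC, read as GTCTG on the opposite strand (64 to 60), on its right. The internal window held no ACGTG or GCGTG and had CAGAC on the opposite strand at 148 to 144 and at 97 to 93 bases before the start.

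Among 32851 RefSeq promoter windows of the same 201 bases, 13.0% held ACGTG, 22.7% GCGTG, 31.7% either of these, 36.0% CAGAC and 0.849% TGACGTCA. The windows of 8 of the 10 genes were matched, 12 in all, without Tgfb3 and Tgfbr3. ACGTG and TGACGTCA were found in the distal Ltbp1 window and in none of the other windows of the set. GCGTG was found in 5 windows, those of Tgfb1, Tgfbr2, Tgfbr1 and Ltbp4 (2 overlapping windows that hold the same match). The main edgeR test called none of these genes, while DESeq2 called Tgfbr2 lower. A match describes letters in the window and is not a binding site.

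The remaining binding protein genes did not follow Ltbp1. Ltbp3 (Entrez 16998; chromosome 19, 5740900 to 5758536) was at 4.52 and 4.75 CPM in wild type and at 8.76 and 3.78 CPM in inducible HIF-1α. The inducible HIF-1α libraries lay on either side of the wild-type pair, and the difference was not called (log2 fold change 0.43 ± 0.46 SE, edgeR adjusted p = 0.666; -0.30 without inducible HIF-1α replicate 1). The counts of Ltbp3 are uncertain because the strand setting is not given. Ltbp4 (Entrez 108075; chromosome 7, 27305140 to 27339720) had 25 counts in each wild-type library and 18 and 5 in inducible HIF-1α, or 0.933 and 1.15 against 0.697 and 0.187 CPM, with no overlap and no call (log2 fold change -1.23 ± 0.87 SE, edgeR adjusted p = 0.515). Its log2 fold change was -0.54 without inducible HIF-1α replicate 2 and -2.45 without replicate 1. Ltbp2 (Entrez 16997; chromosome 12, 84783212 to 84876558) had 9 and 7 counts in wild type and 0 and 8 in inducible HIF-1α and was not tested. Over the summed counts Ltbp2 was 2.17-fold higher in wild type, with an exact interval of 0.876 to 5.85 that includes no difference.

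The make-up of the binding protein transcripts moved with Ltbp1. The summed level of the 4 genes was 1.02 and 1.23 CPM per kilobase of exon in wild type and 2.55 and 2.65 in inducible HIF-1α. Ltbp1 made up 32.9% and 39.45% of that level in wild type and 57.9% and 81.8% in inducible HIF-1α. The share of Ltbp3 was 48.9% and 42.8% in wild type and 37.8% and 15.7% in inducible HIF-1α. In wild type Ltbp3 had the higher level per kilobase in each library (0.498 and 0.524 against 0.335 and 0.484 CPM per kilobase for Ltbp1), and in inducible HIF-1α Ltbp1 did (1.48 and 2.17 against 0.965 and 0.417). In wild-type replicate 2, however, Ltbp1 had more counts than Ltbp3 (112 against 103). The order in that library therefore rests on the exon lengths used, 10.7 kb for Ltbp1 and 9.07 kb for Ltbp3. Of 10 tested stromal and endothelial markers, Cxcl12 and Fn1 were called lower in the same comparison, 8 had a negative log2 fold change, and Col1a2 (0.72) and Pdgfrb (0.29) had a positive one.

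**Figure D3:**
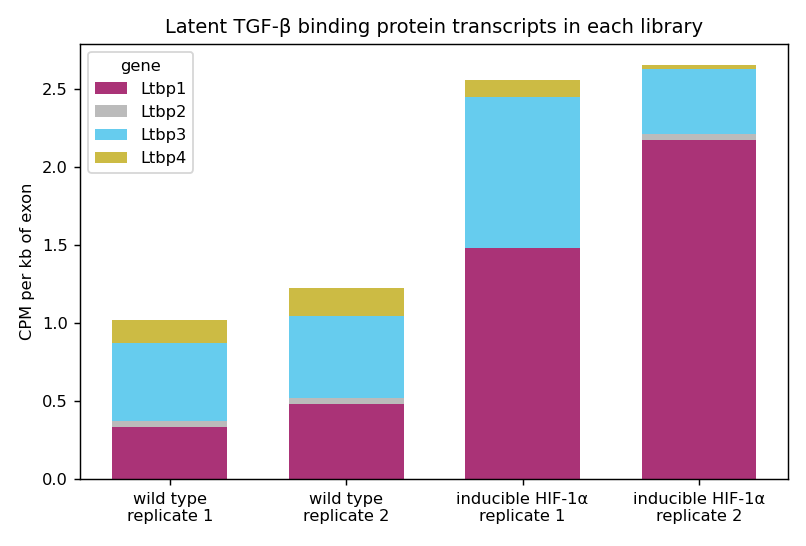
Level of the Ltbp genes in CPM per kilobase of exon (vertical axis, from 0), stacked for each of the 4 libraries. Ltbp1 grows from 0.335 and 0.484 in wild type to 1.48 and 2.17 in inducible HIF-1α, while the other binding protein genes do not grow alike.

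Among the receptors, the levels of Tgfbr1 and Tgfbr2 were lower and that of Tgfbr3 higher in inducible HIF-1α, and none of the differences was called. Tgfbr2 (Entrez 21813; chromosome 9, 116087695 to 116175363), the ligand-binding type II receptor, was at 60.6 and 70.7 CPM in wild type and at 37.1 and 31.1 CPM in inducible HIF-1α. Each inducible HIF-1α library was below both wild-type libraries. The log2 fold change was -0.94 ± 0.21 SE (edgeR adjusted p = 0.0993). It was -1.08 to -0.79 when each library was left out. DESeq2 (adjusted p = 0.00943), edgeR's exact test (adjusted p = 0.00781) and the edgeR fit with no filter on low counts (adjusted p = 0.0369) called Tgfbr2 lower, and limma-voom did not (adjusted p = 0.0805). With replicate 1 (adjusted p = 3.31e-06) or replicate 2 (0.00255) of inducible HIF-1α left out it was among the 4669 and 1666 genes called on the wild-type spread alone. It was not called with either wild-type library left out (0.623 and 0.985).

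Tgfbr1 (Entrez 21812; chromosome 4, 47353222 to 47414926), the signalling type I receptor, was at 201.0 and 189 CPM in wild type and at 166 and 117.5 CPM in inducible HIF-1α. The groups did not overlap, and the difference was not called (log2 fold change -0.46 ± 0.22 SE, edgeR adjusted p = 0.346). With inducible HIF-1α replicate 1 left out it was -0.73 (adjusted p = 0.000509, on the wild-type spread alone), and with replicate 2 left out -0.20 (adjusted p = 0.590). Tgfbr3 (Entrez 21814; chromosome 5, 107106567 to 107289629), the betaglycan gene, was at 20.6 and 25.2 CPM in wild type and at 28.5 and 39.1 CPM in inducible HIF-1α. The groups did not overlap, and the second inducible HIF-1α library was the highest (log2 fold change 0.57 ± 0.25 SE, edgeR adjusted p = 0.315). For Tgfbr3, leaving out inducible HIF-1α replicate 1 gave 0.78 (adjusted p = 0.00235) and leaving out replicate 2 gave 0.36 (adjusted p = 0.372), again on the wild-type spread alone.

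Per kilobase of exon, Tgfbr1 had the highest level of the set in every library. In wild type the mean levels were 29.9 ± 1.28 CPM per kilobase for Tgfbr1, 18.6 ± 0.388 for Tgfb1, 8.02 ± 0.872 for Tgfbr2 and 3.49 ± 0.496 for Tgfbr3 (SD, n = 2), and no neighbours in this order overlapped. In inducible HIF-1α they were 21.7 ± 5.27 for Tgfbr1, 15.0 ± 3.48 for Tgfb1, 5.17 ± 1.15 for Tgfbr3 and 4.17 ± 0.517 for Tgfbr2. There the libraries of Tgfbr2 and Tgfbr3 overlapped, and the lowest Tgfbr1 value (18.0) was close to the highest Tgfb1 value (17.4). The other genes stood lower, in the order Ltbp3 (0.511), Ltbp1 (0.409) and Ltbp4 (0.162 CPM per kilobase) in wild type and Ltbp1 (1.82), Ltbp3 (0.691) and Ltbp4 (0.0684) in inducible HIF-1α. Tgfb2, Tgfb3 and Ltbp2 came last in both genotypes, with counts too few to rank. Tgfbr3 made up 7.61% and 9.28% of the receptor level in wild type and 12.7% and 21.5% in inducible HIF-1α, and Tgfbr2 made up 17.9% and 20.8% against 13.2% and 13.7%. The summed receptor level was 41.3 and 41.4 CPM per kilobase in wild type and 34.3 and 27.8 in inducible HIF-1α.

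The genes whose profile over the 4 libraries was most like that of Ltbp1 were Cacna1c, Fabp5 and Bnip3, by the Euclidean distance between centred log2 CPM values among 11819 genes. Cacna1c encodes a calcium channel subunit, Fabp5 a fatty acid binding protein and Bnip3 a mitophagy receptor known as a HIF-1 target. Their distances were 0.417, 0.485 and 0.522, with 0.5 CPM added before the log. Cacna1c was at 0.299 and 0.785 CPM in wild type and at 3.25 and 6.44 CPM in inducible HIF-1α. The added 0.5 CPM shrinks the differences of a gene at so low a level. Cacna1c was not called (log2 fold change 3.17 ± 0.67 SE, edgeR adjusted p = 0.0886), while Fabp5 and Bnip3 were called higher (0.0170 and 0.0169). A profile of 4 libraries mainly reflects the genotype difference.

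Further genes of the pathway were grouped into 5 lists with 76 genes, of which 65 were tested. Of these, 3 fell (Fn1, Thbs1 and Id3) and none rose, where 1.004% of all tested genes fell. At an unadjusted p under 0.05, 14 were lower and 1 was higher, against 1609 lower and 764 higher over all 14043 genes. DESeq2 and edgeR's exact test each called 8 of them lower and 0 higher, where over all 14043 genes DESeq2 called 799 lower and 172 higher and the exact test 923 and 184. Fits with a single inducible HIF-1α library called 29 of the 65 lower and 6 higher without replicate 1, against 2871 and 1798 of 14552 genes in all. Without replicate 2 they called 9 lower and 2 higher, against 1109 and 557 of 14515 genes. Without either wild-type library the edgeR calls of Fn1, Thbs1 and Id3 were lost, while their log2 fold changes, given below, stayed negative.

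Of the 20 genes that hold TGF-β latent or release it, 17 were tested, 2 fell and none rose, and 11 had a negative log2 fold change (median log2 fold change -0.38, against 0.001 over all genes tested). At an unadjusted p under 0.05, 6 of the 17 were lower and 0 higher, and DESeq2 called 4 lower and 0 higher. Fn1, which encodes fibronectin, a matrix protein on which LTBP1 is laid down, was at 73.5 and 87.2 CPM in wild type and at 8.29 and 5.31 CPM in inducible HIF-1α. Fibronectin transcripts thus lay far apart between the genotypes (log2 fold change -3.56 ± 0.29 SE, edgeR adjusted p = 0.00961). Thbs1, which encodes the TGF-β activator thrombospondin-1, was at 167.5 and 201 CPM in wild type and at 47.5 and 22.3 CPM in inducible HIF-1α (log2 fold change -2.40 ± 0.36 SE, edgeR adjusted p = 0.0385). Total-count scaling ended the call of Thbs1 (adjusted p = 0.0673), as did the stricter filter (0.0525) and the most abundant genes left out (0.0581), and both genes lost it without either wild-type library (0.214 and 0.505 for Fn1, 0.393 and 0.656 for Thbs1). The log2 fold changes in those fits were -3.66 and -3.44 for Fn1 and -2.50 and -2.26 for Thbs1. Fn1 is also in the stromal marker list and is the most abundant gene of its sum in wild type. Mmp9 is likewise shared with the mature neutrophil markers. Of the transcripts known to respond to TGF-β, Col1a1, Col1a2 and Col3a1 are stromal markers too. Nrros, whose product anchors latent TGF-β1 on myeloid cells, was at 127 and 147 CPM in wild type and 131 and 81.1 CPM in inducible HIF-1α, with no call. Plg and Fbn2 were at 0 in all 4 libraries.

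The intracellular part of the pathway showed mostly small differences, the largest being that of Smurf1. None of the 14 tested SMAD and SMAD regulator genes of 16 was called by edgeR or DESeq2, and 1 was lower at an unadjusted p under 0.05 (median log2 fold change -0.12). That gene was Smurf1, a ubiquitin ligase for SMADs and TGF-β receptors, at 11.3 and 13.2 CPM in wild type and 7.21 and 4.12 CPM in inducible HIF-1α (log2 fold change -1.11 ± 0.36 SE, edgeR adjusted p = 0.200). The receptor-activated Smad2 and Smad3 and their partner Smad4, named for their role after their values were seen, had log2 fold changes of -0.15 ± 0.20, -0.11 ± 0.18 and -0.21 ± 0.21 SE. The inhibitory Smad7, itself known to be induced by TGF-β, had -0.12 ± 0.35 SE and was at 13.7 and 12.7 CPM in wild type and at 15.9 and 8.38 CPM in inducible HIF-1α.

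Of the 12 accessory receptor and receptor regulator genes, all tested, none was called by edgeR (median -0.51), with 2 lower and 1 higher at an unadjusted p under 0.05 and 1 lower by DESeq2. Acvrl1, which encodes the type I receptor ALK1 that endothelial cells use for BMP9, was at 19.8 and 21.7 CPM in wild type and at 6.97 and 3.78 CPM in inducible HIF-1α (log2 fold change -1.95 ± 0.35 SE, edgeR adjusted p = 0.0606). DESeq2 (adjusted p = 8.13e-05) and limma-voom (0.0457) called Acvrl1 lower. The coreceptor gene Eng (endoglin), named after its values were seen, was at 31.4 and 39.9 CPM in wild type and at 49.0 and 71.1 CPM in inducible HIF-1α (log2 fold change 0.75 ± 0.26 SE, adjusted p = 0.216).

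Of 16 tested transcripts known to respond to TGF-β (of 19), 1 fell and none rose, with a median log2 fold change of -0.50. At an unadjusted p under 0.05, 3 were lower and 0 higher, and DESeq2 called 2 lower and 0 higher. Id3, which encodes an inhibitor of E protein transcription factors and responds to BMP and TGF-β signals, was at 12.35 and 8.86 CPM in wild type and at 0.620 and 0.225 CPM in inducible HIF-1α (log2 fold change -4.64 ± 0.55 SE, edgeR adjusted p = 0.0190). The call of Id3 was lost without wild-type replicate 1 (adjusted p = 0.351) and replicate 2 (0.551), fits that called 2 and 0 genes in all, while its log2 fold change was -4.36 and -4.86. Tgfbi, a TGF-β-induced matrix protein gene named after its values were seen, was at 54.2 and 56.5 CPM in wild type and at 19.5 and 10.2 CPM in inducible HIF-1α (log2 fold change -1.90 ± 0.33 SE, edgeR adjusted p = 0.0567). DESeq2, edgeR's exact test and limma-voom called Tgfbi lower, as did edgeR with no filter and with the replicate block. The macrophage and B cell marker sums, given above, were lower in the same libraries as these transcripts, and their part in the differences was not tested.

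Of the activin and BMP receptor genes, 6 of 9 were tested and edgeR called none (median -0.48), with 2 lower and 0 higher at an unadjusted p under 0.05 and 1 lower by DESeq2. Bmpr1a, a type I receptor for BMPs, was at 30.9 and 32.4 CPM in wild type and at 14.3 and 9.62 CPM in inducible HIF-1α (log2 fold change -1.41 ± 0.27 SE, edgeR adjusted p = 0.0732). DESeq2 called Bmpr1a lower (adjusted p = 0.000777).

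**Figure D4:**
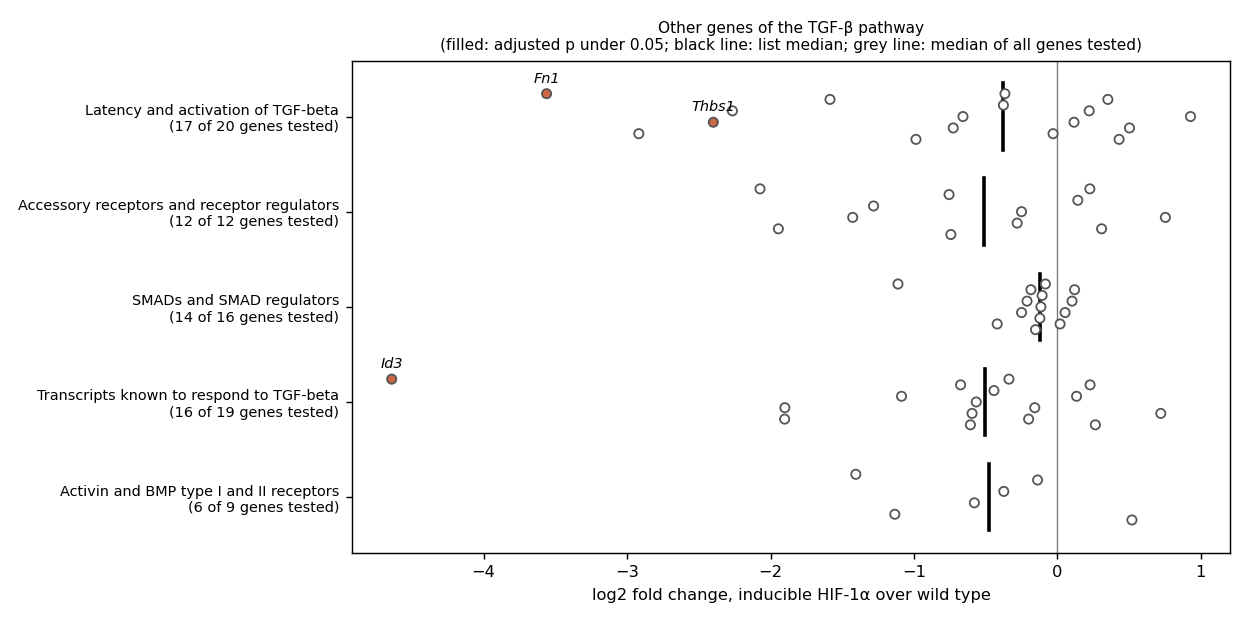
log2 fold change of inducible HIF-1α over wild type (horizontal axis) for each tested gene of the 5 pathway lists. Black lines are list medians, from -0.51 to -0.12, the grey line is the median of all genes tested, and filled points (Fn1, Thbs1 and Id3) have an edgeR adjusted p under 0.05.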

How the data were processed

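The authors deposited raw counts per Entrez gene with a column for each library. The submitters' processing notes name TopHat, edgeR, bcl2fastq and CASAVA 1.8 as tools and mm10 as build. Not given in the sources used here is how reads were counted (program, gene models, strand, reads with several matches). Symbols and gene positions came from a RefSeq table of GRCm38.p6, which mm10 is made from; 81 identifiers had no match (0.911% to 1.45% of counts). No member had a row of counts identical to another gene's. Exon lengths are the union of GENCODE M21 exons, which overstates the length of genes with many isoforms.

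Genotypes were compared with edgeR 4.0.16 (R 4.3.3) by its quasi-likelihood F test over all 4 libraries, without a block, after filterByExpr (minimum count 10) and TMM scaling, with Benjamini-Hochberg adjustment over 14043 genes and a threshold of 0.05. The SE is the size of the log2 fold change divided by the square root of F. The fit was also run on simulated counts with the same spread in both genotypes. That run cannot show how the test handles the unequal spread of these genotypes. Replicates were compared before use: chi-square per degree of freedom was 22.1 in wild type and 111.5 in inducible HIF-1α, so no library was a copy. The genes and lists were chosen with earlier results of these data known. The genes named are all 10 members, up to 4 called genes with the smallest p of each list or else the gene with the smallest p, and the 3 genes with the profile nearest to a called member. Alternatives were other scalings, filters and tools (DESeq2 1.42.0, limma-voom 3.58.1, edgeR's exact test), a replicate block and leaving out each library. Some items are not reported here.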

Additional observations from a re-analysis of the deposited data

How the results depend on the processing

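The number of genes called depended on the fit. Over all genes (16 higher and 141 lower), edgeR called 119 higher and 628 lower with no filter on low counts, 9 and 69 with at least 1 CPM in all 4 libraries, 34 and 347 with the replicate block, 85 lower with total-count scaling, 184 and 923 by the exact test, and DESeq2 called 172 and 799. Leaving out each library gave 0 to 1798 higher and 0 to 2871 lower, with the highest counts where a lone inducible HIF-1α library was assumed to vary like the wild-type pair. Of the set's genes, 0 were called higher with total-count scaling (Ltbp1 2.23), at least 1 CPM in all 4 libraries (2.13) or the 10 most abundant genes left out (2.17), and 0 to 2 with a library left out (Ltbp1 1.89 to 2.44). Called lower was 1 gene, Tgfbr2, with no filter (-0.93), the exact test (-0.94) and DESeq2 (-0.93), and 0 to 3 with a library left out (Tgfbr2 -1.08 to -0.79, Tgfbr1 -0.73 to -0.20, Tgfb1 -0.57 to -0.057), when Tgfbr3 ran from 0.36 to 0.78. Tgfb3 changed sign without inducible HIF-1α replicate 2 (0.87, range -1.07 to 0.87), and Ltbp3 without inducible HIF-1α replicate 1 (-0.30, range -0.30 to 0.95). The cause was not tested. Of the pathway genes (3 lower), 7 were lower with no filter, 1 with at least 1 CPM, 7 with the replicate block, 8 by the exact test, 6 by limma-voom and 8 by DESeq2, and 0 to 29 lower and 0 to 6 higher with a library left out.

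The replicate numbers are shared between genotypes, but nothing in the labels pairs the libraries. The deviations of same-numbered libraries had a correlation of 0.078 over genes. With the replicate block Ltbp1 stayed called (2.15, adjusted p = 0.0119) and Tgfbr2 did not pass (-0.94, adjusted p = 0.0847). With 2 libraries a group, and Tgfb2, Tgfb3, Ltbp2 and Ltbp4 at 25 counts or fewer per library, depth limits what can be said of these genes.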

Other observations

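Per kilobase of exon, Tgfb1 stood at 54.7 and 39.0 times the level of Ltbp1 in the wild-type libraries and at 11.8 and 5.77 times in the inducible HIF-1α libraries. These ratios lie within each library, so they do not depend on how libraries were scaled to each other, but they combine the rise of Ltbp1 with the uncalled difference of Tgfb1.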
